A study of Mus musculus with 8 samples.

Results

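The Ms4a genes encode small membrane proteins that cross the membrane several times and sit beside immune receptors. Their best known relatives are the B cell antigen CD20, encoded by Ms4a1, and the beta chain of the high-affinity IgE receptor, encoded by Ms4a2. The family members described here are used by myeloid cells or T cells: Ms4a4a, Ms4a4b, Ms4a4c, Ms4a6b, Ms4a6c, Ms4a6d and Ms4a7. They were chosen by gene symbol, and the 7 are among 30702 named genes on the array. All 7 were read by 1 probe set each. In humans the MS4A4A and MS4A6A region is known from Alzheimer's disease genetics, where it is tied to the level of soluble TREM2, and in mouse macrophages Ms4a4a associates with the beta-glucan receptor dectin-1.

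Microglia, the macrophages that live in brain and spinal cord tissue, were profiled on 8 whole-transcript expression arrays from C57Black/6J mice, 1 array in each of 8 groups. The control genotype is labelled FL, or F/F on the p50 arrays, and was read as carrying floxed alleles. One control source label, that of the iguratimod array, says wt. The other genotype, labelled icKO, is a conditional knockout of Cx47, a connexin of oligodendroglia, and the series title places the deletion in oligodendroglia rather than in microglia. The labels do not name the Cre driver, the age, the sex, the number of animals behind an array, the drug dose or the time of sampling. Each genotype was profiled in 4 states. The first is naive. The second is experimental autoimmune encephalomyelitis (EAE), in which an immune attack on myelin stands in for multiple sclerosis. The third is EAE with iguratimod, an antirheumatic drug with anti-inflammatory action. The fourth is an EAE state marked p50, a mark the labels do not explain. The naive control array is the reference named in the design text.

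With 1 array a group there is no spread within a group. Each state difference was therefore averaged over the 2 genotypes, and its error came from the misfit of a model with additive effects of genotype and state over the 8 arrays. Levels are log2(intensity + 16), a scale on which differences of dim genes come out too small, and ± gives the standard error (SE) of the limma fit. Tests covered the 18234 genes that exceeded the 50th percentile of named probe sets somewhere among the arrays. All 7 members were tested. Ms4a4b reached that percentile on 2 arrays only, at 8.23 against 8.16 in icKO EAE and at 8.16 against 8.14 in icKO p50. Ms4a7 reached it on 5 arrays, neither naive array among them, Ms4a4a on 7, and the other 4 members on all 8. Because no detection calls were used, a dim member cannot be told from an absent one. Levels of different members come from different probe sets and were not set against each other.

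Some arrays stood apart before any comparison. Both p50 arrays had Xist, a long RNA made from the inactive X chromosome, at 15.9 and 16.64, against 7.71 to 8.30 on the other 6, so p50 cannot be told apart from this difference. The neutrophil list had a median level of 15.01 on the control EAE array and of 9.13 to 11.68 on the other 7. Of the microglia markers all 9 measured were bright enough to be tested, against 0 of 6 neuron, 1 of 5 oligodendrocyte and 2 of 6 astrocyte markers. The genotypes were taken from the labels.

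The 7 genes lie together on mouse chromosome 19. In the RefSeq annotation of build GRCm38.p6, Ms4a7 spans chr19:11321039-11336146, Ms4a4a chr19:11375488-11392915, Ms4a4c chr19:11404717-11427246, Ms4a4b chr19:11443558-11463549, Ms4a6c chr19:11469353-11487182, Ms4a6b chr19:11518559-11530403 and Ms4a6d chr19:11586606-11604804. Ms4a4c and Ms4a4b are neighbours in this order, as are Ms4a6c and Ms4a6b, and both pairs are close paralogs whose probes could in part be shared. Probe sequences were not used here, so that sharing was not tested.

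Both pairs of upstream windows below are printed because in each pair of neighbouring paralogs 1 gene passed in EAE and the other did not. Each window holds the 250 bases before a RefSeq transcript start, read 5′ to 3′ on the gene's strand from the RefSeq promoter table of GRCm38.p6, which held windows for 6 of the 7 members, with no entry for Ms4a6d. Capitals mark matches to the interferon-stimulated response element core GAAANNGAA or to the PU.1 core GAGGAA, on either strand. None of these matches overlaps another.
Ms4a4c, chr19:11407411-11407660, plus strand: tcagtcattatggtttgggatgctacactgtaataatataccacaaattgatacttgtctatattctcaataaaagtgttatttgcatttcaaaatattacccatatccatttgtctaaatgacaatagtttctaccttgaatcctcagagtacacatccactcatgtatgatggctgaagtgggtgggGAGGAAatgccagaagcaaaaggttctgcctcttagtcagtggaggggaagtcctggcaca
Ms4a4b, chr19:11443308-11443557, plus strand: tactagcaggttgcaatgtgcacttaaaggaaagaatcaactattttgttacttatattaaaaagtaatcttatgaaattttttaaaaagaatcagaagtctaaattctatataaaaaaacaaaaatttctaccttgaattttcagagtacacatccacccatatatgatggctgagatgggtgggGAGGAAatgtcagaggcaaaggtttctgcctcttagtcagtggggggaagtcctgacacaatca
Ms4a6c, chr19:11469118-11469367, plus strand: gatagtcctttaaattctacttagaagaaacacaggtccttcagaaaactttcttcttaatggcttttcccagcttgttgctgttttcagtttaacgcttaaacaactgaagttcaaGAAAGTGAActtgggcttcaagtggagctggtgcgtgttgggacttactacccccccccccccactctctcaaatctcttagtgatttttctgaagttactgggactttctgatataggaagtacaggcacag
Ms4a6b, chr19:11518309-11518558, plus strand: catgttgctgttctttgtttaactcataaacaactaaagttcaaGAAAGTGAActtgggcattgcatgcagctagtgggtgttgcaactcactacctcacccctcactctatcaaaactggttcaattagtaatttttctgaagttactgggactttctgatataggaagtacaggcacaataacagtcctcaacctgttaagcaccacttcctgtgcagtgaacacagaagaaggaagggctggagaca
The transcript starts used for Ms4a4c and Ms4a6c lie inside the outermost limits of those genes. In a local alignment, the Ms4a4b and Ms4a4c windows were identical at 181 of 247 aligned columns (73.3%), and both hold GAGGAA, at 64 to 59 bases before the start of Ms4a4b and 61 to 56 before that of Ms4a4c. The Ms4a6b and Ms4a6c windows were identical at 151 of 181 aligned columns (83.4%). Both of these hold GAAAGTGAA, at 206 to 198 bases before the start of Ms4a6b and 133 to 125 before that of Ms4a6c.

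Ms4a7 has a window at each of 2 transcript starts, and each holds a match to GAAANNGAA. The window at the outer start, where the match lies 71 to 63 bases before it and reads on the reverse strand, is printed for comparison with the windows of the Ms4a6 genes.
Ms4a7, chr19:11336147-11336396, minus strand: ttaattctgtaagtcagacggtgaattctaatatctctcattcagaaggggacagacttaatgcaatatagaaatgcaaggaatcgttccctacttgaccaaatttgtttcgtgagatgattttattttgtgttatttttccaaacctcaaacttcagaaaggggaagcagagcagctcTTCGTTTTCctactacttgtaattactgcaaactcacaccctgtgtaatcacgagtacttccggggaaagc
In all, 3 of the 6 members with a window held GAAANNGAA, namely Ms4a6b, Ms4a6c and Ms4a7, against 8.18% of 27025 genes with a window. Counted by window, 4 of the 7 member windows held it, against 7.13% of 32851 windows. The PU.1 core was in 2 of the 6 members, against 25.9% of genes and 23.3% of windows. The gamma-activated sequence TTCNNNGAA was in 0 of the 6, against 8.13% of genes and 7.02% of windows. The Ms4a4a window held none of the 3 motifs. These are matches of letters in a short window and describe no binding. The members are also not independent in these counts. The matches of Ms4a6b and Ms4a6c, like the 2 PU.1 matches, lie in windows of close paralogs, and Ms4a7 had 2 windows.

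In EAE, 3 of the 7 members rose against naive microglia over all genes tested: Ms4a4c by 2.61 ± 0.38, Ms4a6c by 2.49 ± 0.31 and Ms4a6d by 1.09 ± 0.17 on the log2 scale. That is a fold of 6.12, 5.62 and 2.13. Of all genes tested, 3.38% were called higher in this comparison (617 higher and 71 lower, or 161 and 45 after a further quantile normalization). All 7 members had a positive estimate, with a median log2 difference of 1.09 against 0.009 over all genes tested. Ms4a4b counts among them although it was tested only through the icKO EAE and icKO p50 arrays, so its sign adds no support. The plot of levels on the 8 arrays shows Ms4a4c, Ms4a6c and Ms4a6d highest on the EAE arrays.

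**Figure D1:**
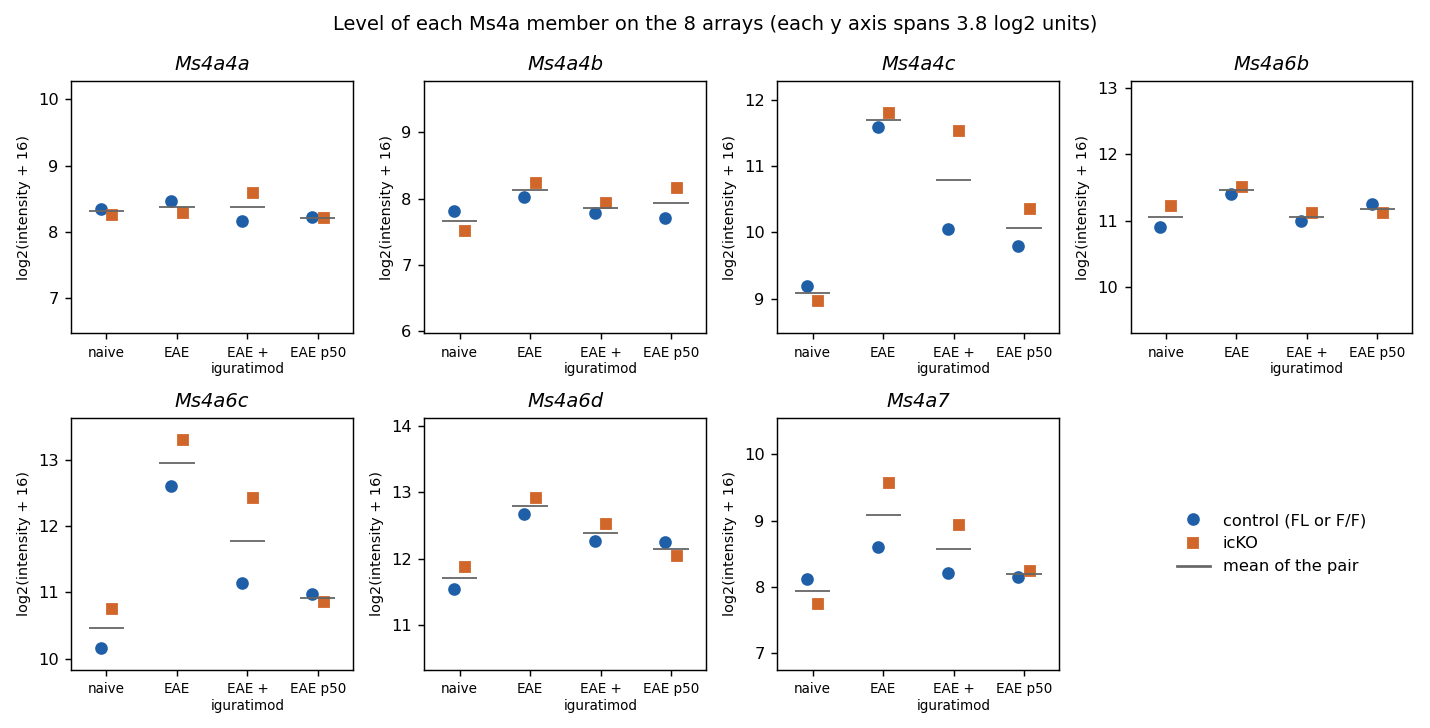
Level of each Ms4a member, as log2(intensity + 16), on the 8 arrays, by state; circles are control arrays, squares icKO arrays, and bars the mean of the pair, with 1 array per point and no error bar. Ms4a4c, Ms4a6c and Ms4a6d lie higher on both EAE arrays than on both naive arrays, while Ms4a4a stays between 8.17 and 8.58.

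Ms4a6c, a macrophage member of the family, lay at 10.17 in control and 10.75 in icKO naive microglia and at 12.60 and 13.30 in EAE. With iguratimod it lay at 11.14 in control and 12.42 in icKO, and in the p50 state at 10.98 and 10.86. Both EAE values were above all 6 other values, and both naive values were below them. The rise in EAE was 5.40-fold in control and 5.86-fold in icKO. The limma adjusted p was 0.0235, the lowest among the members in this comparison.

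Ms4a4c, which is transcribed in haematopoietic cells, lay at 9.19 in control and 8.96 in icKO naive microglia and at 11.58 and 11.80 in EAE. With iguratimod its values were 10.05 in control and 11.53 in icKO, and in the p50 state 9.79 and 10.35. The 2 naive values were the lowest of the 8, and the icKO iguratimod value was close to the EAE values. The EAE rise was 5.23-fold in control and 7.17-fold in icKO (limma adjusted p = 0.0304).

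Ms4a6d, which in mouse macrophages is known as a partner of the receptor VSIG4 in restraining the inflammasome, lay at 11.54 in control and 11.88 in icKO naive microglia and at 12.68 and 12.91 in EAE. With iguratimod it lay at 12.26 and 12.52, and in the p50 state at 12.25 and 12.04. The EAE values were the highest and the naive values the lowest. The rise was 2.21-fold in control and 2.05-fold in icKO (limma adjusted p = 0.0315).

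Ms4a7, a gene that in mouse brain marks border-associated and blood-derived macrophages more than microglia, did not pass in EAE, with a log2 difference of 1.15 ± 0.33 (limma adjusted p = 0.134). It lay at 8.12 in control and 7.74 in icKO naive microglia, at 8.60 and 9.56 in EAE, at 8.21 and 8.93 with iguratimod, and at 8.15 and 8.24 in the p50 state. The icKO EAE value was the highest of the 8, followed by icKO with iguratimod. The EAE difference was 0.48 in control and 1.82 in icKO, and this difference between the genotypes was 1.34 ± 0.43 in a fit with 1 residual degree of freedom (limma adjusted p = 0.72).

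Ms4a4b and Ms4a6b, the neighbouring paralogs of Ms4a4c and Ms4a6c, did not pass, and neither did Ms4a4a. Ms4a4b, which is best known from T cells, lay between 7.52 and 8.23 on the 8 arrays and gave 0.47 ± 0.19 in EAE (limma adjusted p = 0.263). Its highest value was that of the icKO EAE array. Ms4a6b, also known from T cells, lay at 10.90 in control and 11.22 in icKO naive microglia and at 11.40 and 11.51 in EAE, a difference of 0.39 ± 0.15 (limma adjusted p = 0.227). Its 8 values spanned 0.61 log2 units, against 3.12 for Ms4a6c. Ms4a4a, a macrophage gene linked to alternative activation, lay between 8.17 and 8.58 on all 8 arrays and gave 0.08 ± 0.17 (limma adjusted p = 0.841). The difference in response between paralogs was not itself tested.

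**Figure D2:**
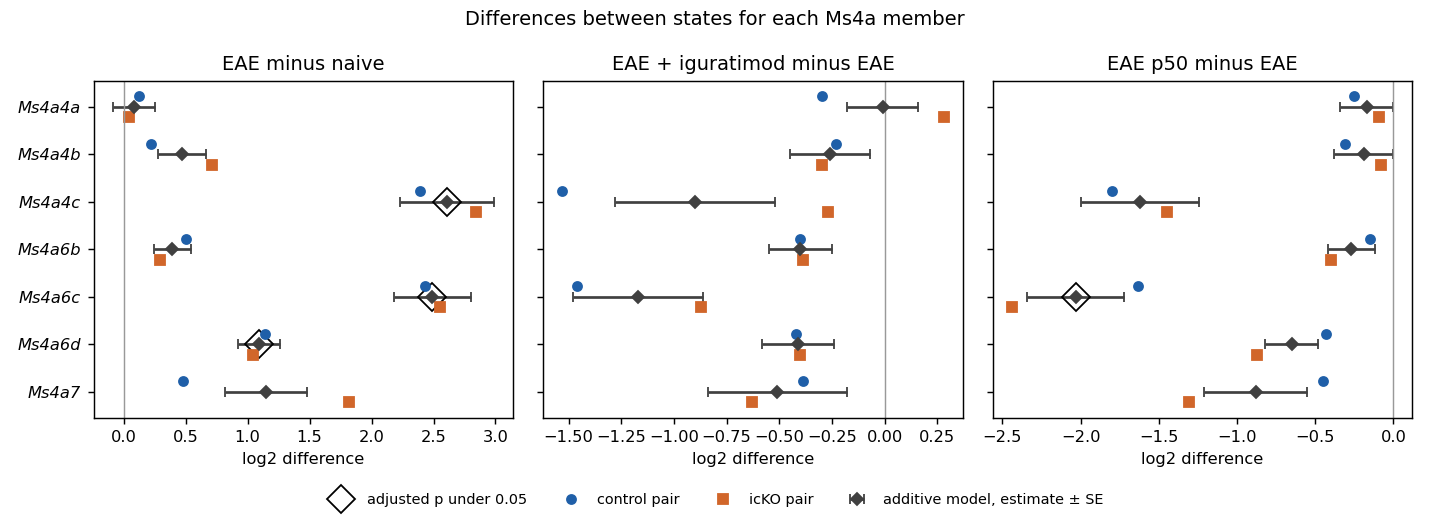
Log2 differences of each member between states, with the additive-model estimate and its SE (diamonds and bars), the control pair (circles) and the icKO pair (squares); outer open diamonds mark a limma adjusted p under 0.05, and each panel has its own x axis. Ms4a4c, Ms4a6c and Ms4a6d passed for EAE minus naive, no member for iguratimod minus EAE, and Ms4a6c for p50 minus EAE.

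The calls in EAE needed all 4 naive and EAE arrays, and this held over all genes tested as well as for the members. Without 1 of these arrays a state holds a single array, so only sizes are given. The log2 differences then ran from 2.12 to 3.11 for Ms4a4c, 2.43 to 2.55 for Ms4a6c and 0.97 to 1.21 for Ms4a6d. Without the p50 pair Ms4a4c did not pass (limma adjusted p = 0.0691), so that 2 members passed, and after a further quantile normalization Ms4a6c alone passed. Over all genes tested, 208 were called higher without the p50 pair and 161 after that normalization, against 617 in the main fit. Without the control EAE array, where the neutrophil list was highest, the log2 differences were 2.42 for Ms4a4c, 2.55 for Ms4a6c and 1.14 for Ms4a6d. The icKO EAE array that remains also had a higher summed neutrophil intensity, as log2, than icKO naive, at 16.68 against 12.73. The part of neutrophils in these sizes was not tested.

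Markers of monocytes, neutrophils and microglia moved beside these members. In the monocyte list 9 of 10 genes were measured, 8 were tested and 2 rose in EAE, Ly6c2 by 4.32 ± 0.40 and Chil3 by 2.24 ± 0.38, and the list median was 1.61. The list's summed intensity, as log2, was 11.34 and 11.71 on the naive arrays and 14.58 and 14.61 on the EAE arrays. It was 12.23 in control and 13.28 in icKO with iguratimod, and 11.67 and 11.91 in the p50 state. In both genotypes this sum and Ms4a4c, Ms4a6c and Ms4a6d were highest in EAE and second highest with iguratimod. Ly6c2 was the brightest gene of the list on both EAE arrays, and only some other list genes, such as Chil3 and Itga4, kept this order. With iguratimod, control Fn1 (8.09) lay below p50 (9.43) and control Ccr2 (8.31) below naive (8.73). In icKO, Plac8 was higher with iguratimod (9.76) than in EAE (9.33). In the neutrophil list 9 of 9 tested genes had a positive estimate in EAE, with a median of 3.56, and 0 passed (limma). Its summed intensity, as log2, was 14.67 in control and 12.73 in icKO naive microglia and 19.82 and 16.68 in EAE. In the microglia list 8 of 9 tested genes had a negative estimate, with a median of -0.48, and 0 passed. The largest falls were those of Gpr34 (-1.48 ± 0.28) and Fcrls (-1.31 ± 0.28). The list's median level went from 13.32 in naive to 13.08 in EAE in control, and from 13.78 to 12.53 in icKO. The genotype difference of the EAE change was positive for 0 of the 9, with a median of -0.84 and 0 passing (limma). The part of monocytes, neutrophils or a lower share of microglia in the rise of the Ms4a genes was not tested, and in bulk RNA more cells of a type and more RNA per cell cannot be told apart.

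Markers of other cell types had medians nearer to 0. None of 9 tested border-associated macrophage markers passed in EAE (limma), and their median log2 difference was -0.18, with Mrc1 at 8.06 to 8.48 and Cd163 at 8.33 to 8.66 over the 8 arrays. None of 8 tested T and natural killer cell markers passed, with a median of 0.20. On the icKO EAE array, which also had the highest Ms4a4b, Cd3e lay at 9.09 against 7.91 to 8.23 on the others. Cd3d, Cd3g, Gzma and Gzmb were highest there too. Of these, Cd3d, Gzma and Gzmb reached the filter on this array only, so their being highest there adds no support. The list median of 0.20 includes them. Cd8a, in contrast, was lowest there at 7.61, Nkg7 was highest in control EAE (8.49) and Klrd1 in icKO naive (9.28), where Ms4a4b was lowest. The summed T and natural killer list, as log2, was 11.68 on the icKO EAE array and 11.12 to 11.35 on the other 7. The part of T cells in the Ms4a4b values was not tested. B cell markers were mostly too dim to test, with 2 of 7 measured genes tested, and Ms4a1, the CD20 gene, lay between 7.44 and 7.98 and was not tested. For dendritic cells 0 of 6 tested markers passed, with a median of -0.05, and for mast cells and basophils 0 of 4, with a median of -0.29.

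**Figure D3:**
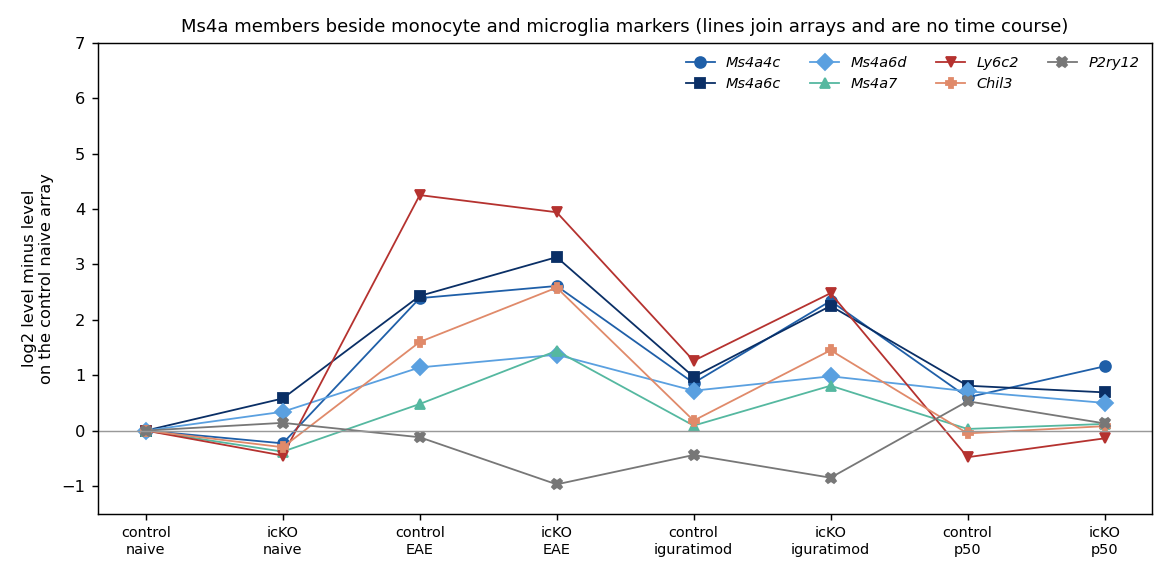
Log2 level of 4 Ms4a members, the monocyte-associated genes Ly6c2 and Chil3 and the microglia gene P2ry12 on each of the 8 arrays, minus the level on the control naive array; lines join arrays for legibility only. Ms4a4c and Ms4a6c are high on the EAE arrays and on the icKO iguratimod array, as Ly6c2 and Chil3 are.

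Of the other Ms4a genes and the related Tmem176a and Tmem176b, 14 of 16 listed were measured and 6 were bright enough to be tested, and 0 of the 6 passed in EAE, with a median log2 difference of -0.08. Ms4a4d lay between 8.67 and 9.39 and gave 0.17 ± 0.19. Tmem176b, a Ms4a-like gene of dendritic cells and macrophages, gave -0.40 ± 0.29, with 11.86 in control and 12.35 in icKO naive microglia and 12.03 and 11.38 in EAE. Tmem176a gave -0.03 ± 0.18. The remaining tested genes Ms4a3, Ms4a5 and Ms4a8a had no value above 8.43.

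Genes of TREM2 and dectin-1 signalling, to which the Ms4a proteins have been linked, were read beside the family. None of 11 tested genes passed in EAE (limma), and 11 of 11 had a positive estimate, with a median of 0.40. Trem2, a receptor of microglia for lipids, gave 0.09 ± 0.25, with 11.30 and 11.81 in naive and 11.86 and 11.44 in EAE microglia. Tyrobp, which encodes its signalling adaptor, gave 0.53 ± 0.30. Clec7a, which encodes dectin-1, gave 4.82 ± 1.12 (limma adjusted p = 0.0833). It lay at 9.12 and 9.65 in naive microglia and at 13.27 and 15.14 in EAE.

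Iguratimod was compared with untreated EAE, and no member passed over all genes tested, where 0% were called (limma). Ms4a6c gave -1.17 ± 0.31 (adjusted p = 0.519), Ms4a4c -0.90 ± 0.38 (0.608), Ms4a7 -0.51 ± 0.33 (0.729), Ms4a6d -0.41 ± 0.17 (0.587) and Ms4a6b -0.40 ± 0.15 (0.563). The member median was -0.41, against -0.008 over all genes tested. At an unadjusted p under 0.05 there were 3 members, Ms4a6b, Ms4a6c and Ms4a6d, beside 8.51% of all genes tested. Because the EAE arrays also enter the comparison with naive, with the opposite sign, the 2 sets of differences are not independent.

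Within the control pair, Ms4a4c and Ms4a6c were 2.88-fold and 2.76-fold dimmer with iguratimod, where 1.7% of genes were at least 2-fold dimmer. In the icKO pair no member was 2-fold dimmer, against 1.52% of genes, with Ms4a4c 1.21-fold and Ms4a6c 1.83-fold dimmer. The difference between the genotypes was not called. For Ms4a4c the genotype difference of the iguratimod change was 1.25 ± 0.48 (limma adjusted p = 0.599) and for Ms4a6c 0.59 ± 0.44 (adjusted p = 0.72), with 0% of genes called, 1529 genes at an unadjusted p under 0.05 and 1 residual degree of freedom. Ms4a6d and Ms4a6b were dimmer by nearly equal amounts in both genotypes, at -0.42 and -0.40 for Ms4a6d and -0.40 and -0.39 for Ms4a6b. This pattern was not particular to the Ms4a genes. Clec7a was 14.9-fold dimmer in control and 1.87-fold in icKO, and Apoe 4.72-fold and 1.48-fold. Of the 11 tested genes of TREM2 and dectin-1 signalling, 10 had a positive genotype difference of the iguratimod change, with 0 called (limma). For Ly6c2 the control arrays read 14.27 without and 11.28 with iguratimod, and the icKO arrays 13.96 and 12.50. The neutrophil list's summed intensity, as log2, was 19.82 without and 15.36 with iguratimod in control, and 16.68 and 17.04 in icKO. The part of such cells in these values was not tested.

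Against naive microglia, the iguratimod arrays gave no called member, where 0.00548% of genes were called (limma). Ms4a4c gave 1.71 ± 0.38 (adjusted p = 0.223), Ms4a6c 1.32 ± 0.31 (0.233) and Ms4a6d 0.68 ± 0.17 (0.24). In control the Ms4a4c value with iguratimod was 0.86 above naive, in icKO 2.57. Ms4a6b had the same mean of 11.06 in both states, with a difference of 0.10 in control and -0.11 in icKO.

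The p50 arrays were compared with the EAE arrays. Ms4a6c fell by 2.03 ± 0.31 on the log2 scale (limma adjusted p = 0.0376), and 1.62% of genes tested were called lower (295, beside 199 called higher, or 174 and 173 after a further quantile normalization). It was the 1 member of 7 that passed. The same EAE arrays gave its rise against naive, so this fall and that rise are not independent. Ms4a4c gave -1.62 ± 0.38 (adjusted p = 0.0923), Ms4a6d -0.65 ± 0.17 (0.106) and Ms4a7 -0.88 ± 0.33 (0.219), and the member median was -0.65, against -0.022 over all genes. The call of Ms4a6c was lost without either naive, either EAE or either p50 array, where fewer genes were also called lower over all genes. Its difference stayed at -2.03 without either naive array and ran from -2.52 to -1.55 without 1 EAE or p50 array. With no filter Ms4a6c did not pass (limma adjusted p = 0.055), and 201 of 30702 genes were called lower. Without the iguratimod pair Ms4a4c passed as well (0.0439), and 261 genes were called lower. Ly6c2 was 14.27 and 13.96 in EAE and 9.54 and 9.88 in p50, while Inpp5d, a phosphatase that dampens TREM2 signalling, rose by 1.10 ± 0.16 (adjusted p = 0.0332) and Clec7a lay at 13.12 and 13.03. The monocyte list had a median of -1.30 in this comparison, the neutrophil list -3.63, with 0 of 9 tested genes positive and 0 passing, and the microglia list 0.79, with 8 of 9 positive. Of the microglia list Tmem119 passed, at 0.90 ± 0.16 (adjusted p = 0.0482). Of the monocyte list Ly6c2 passed as lower. The border-associated macrophage gene Stab1 passed as higher, at 9.43 and 9.36 in EAE and 10.69 and 10.40 in p50, while that list's median was -0.10. The part of these cell types in the fall of Ms4a6c was not tested.

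Against naive, the p50 arrays gave no called member, where 0.751% of genes were called in either direction (limma, 64 higher and 73 lower, or 282 and 105 with arrays centred on their median). Ms4a4c gave 0.99 ± 0.38 (adjusted p = 0.227), Ms4a6c 0.46 ± 0.31 (0.455) and Ms4a6d 0.44 ± 0.17 (0.22). Ordered by the mean of each pair, Ms4a6c ran from naive (10.46) through p50 (10.92) and iguratimod (11.78) to EAE (12.95), and Ms4a4c, Ms4a6d and Ms4a7 had the same order. For Ms4a6c and Ms4a7 the naive and p50 means differed by less than the gap within the naive pair. For all 4 genes the p50 and iguratimod means differed by less than the gap within the iguratimod pair, which was 1.28 for Ms4a6c, 1.47 for Ms4a4c, 0.25 for Ms4a6d and 0.72 for Ms4a7. The iguratimod and EAE means of Ms4a4c, Ms4a6c and Ms4a7 also differed by less than the wider gap within those pairs.

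Over the 4 states, icKO did not differ from control in any member at the threshold used (limma, 0% of genes called; 990 genes had an unadjusted p under 0.05). The largest estimates were 0.61 ± 0.22 for Ms4a6c (limma adjusted p = 0.882) and 0.50 ± 0.27 for Ms4a4c (adjusted p = 0.882), and the member median was 0.16, against -0.02 over all genes. All 7 estimates were positive, but Ms4a4b was tested only through icKO arrays, and Ms4a4a, at 0.03 ± 0.12, was -0.096 without the iguratimod pair. The members also share arrays and patterns, so their signs are not separate observations. The state pairs differed. With iguratimod Ms4a4c and Ms4a6c were 2.78-fold and 2.43-fold brighter in icKO, where 1.26% of genes were at least 2-fold brighter. In EAE no member reached 2-fold, against 1.28% of genes, Ms4a7 coming closest at 1.94-fold and Ms4a6c following at 1.62-fold. In naive microglia 3 of 7 members and in the p50 state 3 of 7 were brighter in icKO, none by 2-fold. No test can be made within a pair.

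**Figure D4:**
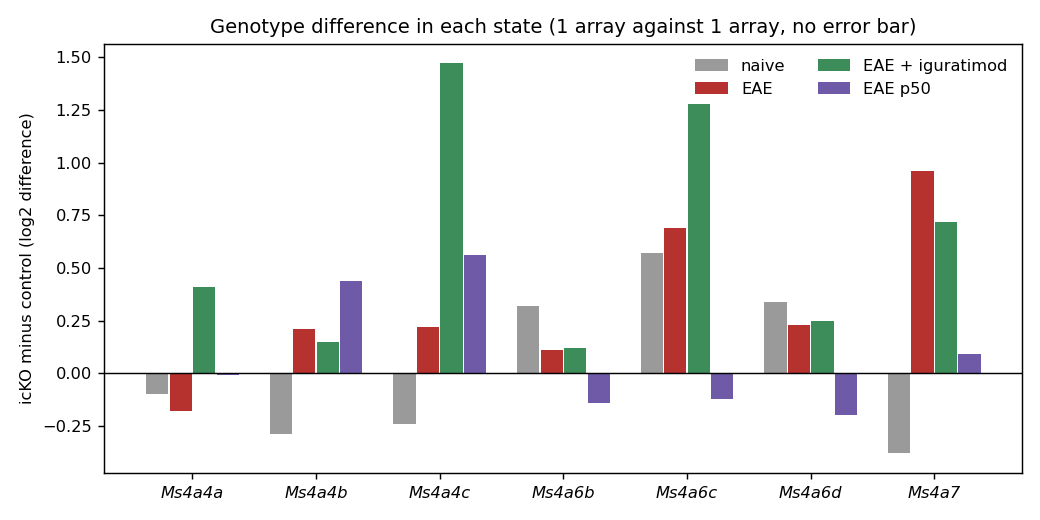
Log2 difference between icKO and control for each member in each of the 4 states, 1 array against 1 array, so that no error can be given. The bars for Ms4a4c and Ms4a6c with iguratimod, 1.47 and 1.28, are above 1, and those of the p50 state lie between -0.20 and 0.56.

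The EAE change itself was read in each genotype. In control, 3 members were at least 2-fold brighter in EAE, Ms4a4c, Ms4a6c and Ms4a6d, where 4.59% of genes were. In icKO, 4 were, Ms4a7 being the addition, where 4.72% of genes were. The size of the EAE change did not pass as different between genotypes in any member (limma, 0% of genes called, 1131 genes at an unadjusted p under 0.05). For Ms4a6c the gap was 0.12 ± 0.69 and for Ms4a6d -0.10 ± 0.39.

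The members also differed in how alike their patterns were over the 8 arrays, given here as Pearson r on log2 levels without a test, since the arrays share states and genotypes. Ms4a6c and Ms4a6d had r = 0.96, Ms4a4c and Ms4a6c 0.94, Ms4a4c and Ms4a6d 0.91 and Ms4a6c and Ms4a7 0.90. Ms4a6b had r = 0.77 with its neighbour Ms4a6c, and Ms4a4b 0.79 with its neighbour Ms4a4c, over a range of 0.71 log2 units for Ms4a4b and 2.84 for Ms4a4c. Ms4a4a had r between 0.12 and 0.55 with the other members.

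For each member, the genes with the most similar pattern were taken from 1114 protein-coding genes that spanned at least 1 log2 unit. For Ms4a4c they were Ifi211, an interferon-inducible p200 gene (r = 0.994), Tor3a (0.993) and Tap1, which encodes a peptide transporter for MHC class I (0.993). For Ms4a6c they were Psmb10, an immunoproteasome subunit gene (0.994), Txn1 (0.989) and Cox4i1 (0.987). For Ms4a6d they were Psmb8, another immunoproteasome gene (0.986), and the ribosomal protein genes Rps4x (0.984) and Rps3a1 (0.984). Ms4a7 was most like Acod1, which encodes the enzyme that makes itaconate (0.983), Pla2g7 (0.982) and the cytokine gene Il1b (0.979). Il1b lay at 8.54 and 8.42 in naive and at 9.77 and 11.79 in EAE microglia. For the members that varied least the likeness was lower. Each of them spanned less than the 1 log2 unit required of the candidates, so genes as flat as they are could not be chosen. Their r values therefore cannot be set against those of the other members. Ms4a6b was nearest to Tagln2 (0.925), Ctbs (0.91) and Lcp1 (0.908), Ms4a4b to Clic4 (0.919), Ccl8 (0.907) and Myof (0.881), and Ms4a4a to Xaf1 (0.887), Cers6 (0.853) and Rnf168 (0.825).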

How the data were processed

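The deposited table holds intensities on a linear scale, as its range shows, for 65956 rows (array transcript clusters) on 8 arrays. Affymetrix Expression Console made these values, per the submitters' processing notes, from RNA labelled with a pico-input kit, per the labels' protocols. The summary method and any normalization are not stated in those sources. Array medians ran from 243.1 to 268.6. Precision is limited by having 8 arrays.

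Of the rows, 31258 carried 1 gene symbol, updated through RefSeq of GRCm38.p6 in 1135 cases, 1492 with more than 1 symbol were not used, and 33206 had no name in the table used. This left 30702 genes, the brightest probe set standing for a gene with several. With R 4.3.3 and limma 3.58.1 (lmFit and eBayes), log2(intensity + 16) was fitted to state and genotype over all 8 arrays, which left 3 residual degrees of freedom (prior SD 0.16), with Benjamini-Hochberg adjustment over 18234 tested genes at an adjusted p of 0.05. A genotype difference that depends on the state counts as spread. The genotype differences of the EAE and iguratimod changes came from fits with 1 residual degree of freedom, in which the other 2 states share a genotype effect. The number of animals behind an array is not stated, so a p-value reflects only how these 8 arrays scatter.

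Upstream windows were aligned with Biopython 1.88 (match 1, mismatch -1, gap opening -2, gap extension -1). All 7 members were named, as were, for each, the 3 most similar genes of the kinds named. The members, gene lists and motifs were chosen with earlier results of these data known. Alternatives were other pseudocounts and filters, 2 further normalizations, the mean of probe sets, another prior, and fits without 1 array, the p50 pair or the iguratimod pair. The targeted gene is not reported here.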

Additional observations from a re-analysis of the deposited data

Results flagged for a closer look

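For 3 members a change from one state to another had opposite signs in the 2 genotypes. Each rests on 1 array against 1 array in each genotype, and the difference was not tested except where a fit is named. With iguratimod against EAE, Ms4a4a gave -0.30 in control and 0.28 in icKO, a difference of 0.59 (limma adjusted p = 0.608 in the fit with 1 residual degree of freedom). Against naive, iguratimod gave -0.18 and 0.32 for Ms4a4a (difference 0.50), -0.02 and 0.42 for Ms4a4b (0.43), and 0.10 and -0.11 for Ms4a6b (-0.21). The p50 state against naive gave -0.09 and 0.64 for Ms4a4b (0.73) and 0.35 and -0.11 for Ms4a6b (-0.46). All of these changes are under 2-fold.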

How the results depend on the processing

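No paired analysis was possible because each group holds 1 array, so that a replicate number cannot serve as a block. The fit itself compares states within genotype and genotypes within state. For EAE against naive, 3 members passed with other pseudocounts, no filter, the 70th percentile filter, centred arrays or the mean of probe sets, 2 with a trended and robust prior and without the p50 or the iguratimod pair, and 1 after a further quantile normalization. Leaving out 1 array gave 0 to 2. For p50 against EAE, 0 passed with no filter and 2 without the iguratimod pair, and leaving out 1 array gave 0 to 2. In every other comparison the count was 0 under each alternative run. Over all genes, 617 were called higher in EAE against naive, 161 after quantile normalization, 208 without the p50 pair and 0 without any 1 naive or EAE array. For p50 against EAE, 295 were called lower and 174 after quantile normalization. Tested as an interaction of genotype with EAE, 0 genes were called, but 15 higher and 4 lower with the trended and robust prior and 9 and 5 with the 70th percentile filter, none of them a member.

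Of the members' 56 log2 differences, 12 changed sign under at least 1 alternative, and none of those had passed. Leaving out 1 array moved Ms4a4a between -0.061 and 0.22 for EAE against naive, -0.26 and 0.243 for iguratimod against EAE, -0.18 and 0.32 for iguratimod against naive, and -0.096 and 0.10 for genotype, where it was -0.096 without the iguratimod pair. Against naive, iguratimod ran from -0.075 to 0.48 for Ms4a4b and -0.15 to 0.143 for Ms4a6b, and p50 from -0.004 to 0.55 for Ms4a4b, -0.043 to 0.28 for Ms4a6b, -0.025 to 0.94 for Ms4a6c and -0.215 to 0.75 for Ms4a7. For p50 against EAE, Ms4a4b ran from -0.40 to 0.018. The Ms4a4b genotype difference of the iguratimod change was 0.042 after quantile normalization or centring. The cause was not tested. Of 98 within-pair differences, 20 were at least 2-fold, and 19 after quantile normalization. Over all genes tested, 0.0877% to 4.72% were at least 2-fold brighter or dimmer, by pair and direction. The within-pair differences reuse the same arrays, so they are not separate observations.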
